A study of Mus musculus with 2 samples.

Results

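A splice junction is the point where a sequencing read leaves one exon and enters the next, and the distance it skips is the length of the intron. The junctions described here are those of adult mouse lung that skip fewer than 90 nt. They were chosen from the deposited junction list on their measured values: a span under 90 nt, at least 20 reads in all, and at least 5 reads in each of 2 tallies named R1 and R2. Of the 447240 rows in the list, 106636 passed the rule on reads at any length, and 5070 of these (4.75%) spanned fewer than 90 nt. Length, read sum and tallies are therefore descriptions of how the junctions were chosen. The data are 2 libraries of polyadenylated RNA over 200 nt, read in stranded pairs of 76 nt, from lung tissue of 8-week-old C57BL/6J littermates of mixed sex. Both libraries belong to 1 untreated group and carry the same donor record. They are labelled as biological replicates, each from pooled male and female tissue, but nothing says whether the animals differed. There is thus no contrast to test and no p-value is given. No label ties tally R1 or R2 to replicate 1 or 2, and the tallies are given under their own names.

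The spliceosome removes an intron by pairing the U1 particle with the 5′ splice site (the donor, usually beginning GT), the U2 particle with a branch point, and U2AF with the 3′ splice site (the acceptor, usually ending AG). Most mammalian introns are long and are recognised through the exons on either side of them. Very short introns leave little room between the donor and the branch point, are often rich in G and C, and are usually recognised as a unit across the intron itself. Clusters of G, bound by factors of the hnRNP H and F family, are a known splicing enhancer in such introns.

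The list gives positions on mm9 and no gene names. Each junction was named by its structure: an annotated intron (GENCODE M21) had to have the same chromosome, strand and length, and at least 2 other junctions within 20000 nt had to stand at exactly the same distances. In this way 4731 of the 5070 junctions (93.3%) were matched to an annotated intron, 134 lay inside an annotated exon and 205 were not placed. Matched junctions had a median of 18 supporting neighbours. Sequence was read from annotated transcripts that hold the intron unspliced in an exon, which gave it for 1087 of the matched introns and all 134 of those inside exons. Coordinates printed with sequences are on GRCm38 (mm10), from GENCODE; all other coordinates are on mm9, from the deposited list.

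The following introns are shown because they carry the most reads with a readable sequence (Clic3, Actb, Crip1), are among the shortest that hold most of the reads at both of their sites (Siglecf, Piezo1), or stand at the ends of the range of base composition (Sbno1, Eef1a1, Dhrs13). Capitals mark the first and last 2 bases, and each sequence is the whole intron, 5′ to 3′ on its own strand.
Clic3 intron 5 (chr2:25458480-25458564, plus strand): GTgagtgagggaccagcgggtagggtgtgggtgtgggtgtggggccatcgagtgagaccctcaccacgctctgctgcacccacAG
Actb intron 2 (chr5:142905477-142905563, minus strand): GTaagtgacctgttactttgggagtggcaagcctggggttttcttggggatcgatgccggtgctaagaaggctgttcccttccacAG
Crip1 intron 4 (chr12:113153376-113153454, plus strand): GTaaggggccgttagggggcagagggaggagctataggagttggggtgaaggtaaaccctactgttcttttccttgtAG
Siglecf intron 2 (chr7:43351585-43351646, plus strand): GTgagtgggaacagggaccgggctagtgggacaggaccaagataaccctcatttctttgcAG
Piezo1, 65 nt (chr8:122482992-122483056, minus strand): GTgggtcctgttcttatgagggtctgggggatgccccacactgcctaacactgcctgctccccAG
Sbno1 intron 11 (chr5:124401068-124401140, minus strand): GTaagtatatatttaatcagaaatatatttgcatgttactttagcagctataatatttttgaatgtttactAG
Eef1a1 intron 5 (chr9:78479535-78479623, minus strand): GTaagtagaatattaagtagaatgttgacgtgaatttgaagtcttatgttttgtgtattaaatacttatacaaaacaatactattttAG
Dhrs13 intron 1 (chr11:78032499-78032584, plus strand): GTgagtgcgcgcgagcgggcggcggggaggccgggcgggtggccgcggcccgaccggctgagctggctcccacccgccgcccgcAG
All 8 begin with GT and end with AG. GGG was counted at every starting base, so a longer run of G counts more than once. Counted so, GGG occurs 7 times in the Clic3 intron, 8 times in that of Crip1 and 5 times in that of Piezo1. It does not occur in those of Sbno1 and Eef1a1.

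The next sequences show splice sites a few bases apart. In Ncln and Ager both acceptors are in capitals, and in Tmem259 both donors.
Ncln, 69 or 72 nt (chr10:81488356-81488427, minus strand): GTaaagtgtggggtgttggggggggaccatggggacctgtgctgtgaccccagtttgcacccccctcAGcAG
Ager, 85 or 89 nt (chr17:34600622-34600710, plus strand): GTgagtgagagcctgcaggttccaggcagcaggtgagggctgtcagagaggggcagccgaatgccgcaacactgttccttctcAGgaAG
Tmem259, 71 or 75 nt (chr10:79978321-79978395, minus strand): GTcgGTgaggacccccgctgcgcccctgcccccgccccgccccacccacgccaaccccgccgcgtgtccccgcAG

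The last set shows junctions inside annotated coding exons. Those of Fastk, Ptgfrn and Clcn4 run from GT to AG, in capitals.
Fastk, 84 nt (chr5:24443992-24444075, minus strand): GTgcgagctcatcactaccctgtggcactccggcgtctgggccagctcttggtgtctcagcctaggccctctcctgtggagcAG
Ptgfrn, 81 nt (chr3:101072998-101073078, minus strand): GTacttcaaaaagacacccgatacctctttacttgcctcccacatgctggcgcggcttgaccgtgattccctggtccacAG
Clcn4, 82 nt (chr7:7289089-7289170, minus strand): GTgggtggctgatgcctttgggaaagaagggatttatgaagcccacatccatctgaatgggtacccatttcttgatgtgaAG
The gaps in Son, Gsn and Dut have no GT and AG at their ends. They are printed with 29 bases of exon on each side for Son and 12 for Gsn and Dut, and capitals mark the 2 copies of a direct repeat at the ends of the gap.
Son, 60-nt gap (chr16:91656528-91656587, plus strand): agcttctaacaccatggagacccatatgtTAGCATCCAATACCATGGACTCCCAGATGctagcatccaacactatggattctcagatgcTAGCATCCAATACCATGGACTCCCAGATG
Gsn, 36-nt gap (chr2:35282483-35282518, plus strand): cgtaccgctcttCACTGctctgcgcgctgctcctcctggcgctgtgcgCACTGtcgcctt
Dut, 43-nt gap (chr2:125247285-125247327, plus strand): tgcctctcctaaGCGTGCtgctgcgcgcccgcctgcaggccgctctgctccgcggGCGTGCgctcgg

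The list carries 2 flags per junction, A and C, whose meaning the sources used here do not give. Among the short junctions 4747 (93.6%) had both flags set. Of the 4756 with flag A, 4695 (98.7%) matched an annotated intron; of the 314 without it, 36 did. Of the 1119 junctions with flag C and a readable sequence, all 1119 ran from GT to AG, and of the 102 without flag C, none did. The description as very short introns thus rests on a matched intron for 4731 rows. It was not borne out for the 205 rows that were not placed, nor by sequence for those without flag C, of which 9 matched an annotated intron; the 198 rows without flag C are described on their own near the end.

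Lengths ran from 31 nt, the shortest in the list, to the bound at 89 nt, with a median of 82 nt and quartiles of 77 and 86 nt. The junctions were not spread evenly below the bound: 4945 (97.5%) were of 65 nt or more, and 3296 (65.01%) of 80 nt or more. There were 12 junctions at 65 nt, 68 at 70 nt, 309 at 80 nt and 347 at 82 nt, after which the number per length stayed between 324 and 340 up to 89 nt. Of the 125 junctions under 65 nt, 7 matched an annotated intron and 104 lacked flag C. At the bound, 338 junctions of 89 nt fell inside and 272 of 90 nt outside, with median sums of 169.5 and 174 reads; 44 rows with a sum of 19 missed the read minimum and 42 with a sum of 20 met it; and 18 rows with a lower tally of 4 missed where 33 with a lower tally of 5 were kept.

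**Figure D1:**
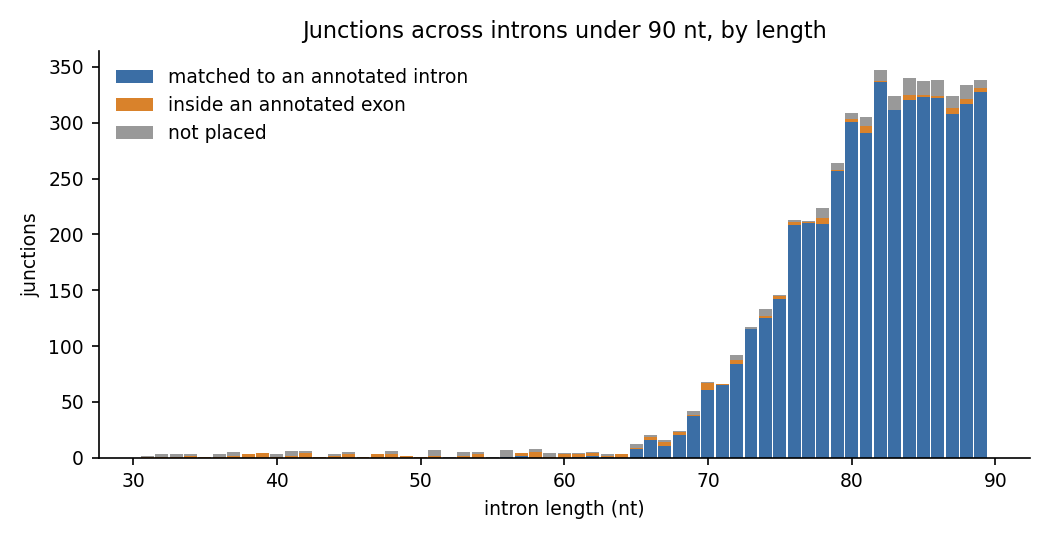
Number of junctions (vertical axis) at each intron length in nt (horizontal axis), stacked by whether the junction matched an annotated intron, lay inside an annotated exon or was not placed. Matched introns begin at 56 nt and climb steeply from 65 nt, with 347 junctions of all 3 kinds at 82 nt, while the few junctions below that are nearly all unmatched.

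The annotation gives the same lower edge. Genes that reached 1 TPM in each library hold 6412 annotated introns of 31 to 89 nt, and 4702 of these (73.3%) were among the junctions here. Of the 53 annotated introns of 31 to 49 nt, none was found, which allows a share of up to 6.72% (exact Clopper-Pearson 95% interval, counting error only). Of the 77 of 50 to 64 nt, 7 were found (9.09%, interval 3.73 to 17.8%). From 65 to 69 nt the share was 66.2% (57.7 to 73.99%), and it was between 72.9% and 77.4% in each class of 5 nt above that.

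The shortest matched intron was intron 8 of Hnrnph1, at 56 nt (chromosome 11, 50196374 to 50196429), with 141 reads in tally R1 and 49 in R2. Hnrnph1 encodes one of the proteins that bind runs of G. The first intron of Gcdh, which encodes a mitochondrial dehydrogenase, is 57 nt long, lies in the 5′ UTR and had 247 and 365 reads. Intron 2 of Siglecf, a lectin of eosinophils and alveolar macrophages, is 62 nt long and had 48 and 62 reads. Intron 10 of the kinase gene Adck5 is 63 nt long and had 32 and 30 reads. Among these 4 introns the lowest share of the reads at a site was 90.2%, at the acceptor of Siglecf. The other 3 matched introns under 65 nt were minor forms of a longer one. The 57-nt intron of Stx4a (26 and 21 reads) took 4.84% of the reads at its donor, the 62-nt intron of Rnf167 (8 and 13 reads) 1.59%, and the 61-nt intron of Adamts10 (7 and 17 reads) 1.26%.

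The unconventional intron of Xbp1, cut by the endonuclease Ern1 and not by the spliceosome, is shorter than 31 nt, the shortest span in the list, so its removal could not be read here. The gene itself stood at 116 TPM in replicate 1 and 114 TPM in replicate 2. Its endonuclease gene Ern1 stood at 20.3 and 26.8 TPM, and the ligase gene Rtcb at 58.5 and 38.4 TPM.

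Together the short junctions held 2181549 reads, 6.20% of tally R1 and 6.15% of tally R2. The sum per junction had a median of 156.5 reads, quartiles of 64 and 387.75, and a highest value of 97008. Junctions of 90 to under 150 nt past the same read rule (8587) had a median of 142 reads, those of 150 to under 1000 nt (35418) of 108, and those of 1000 nt and over (57561) of 80. The 12 junctions of highest sum held 14.7% of the reads on the short junctions.

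The gene with the most reads across a short intron was Cbr2, a carbonyl reductase abundant in club cells. Its last intron, of 89 nt (chromosome 11, 120591140 to 120591228), had 52240 reads in tally R1 and 44768 in R2, and its intron 3, of 84 nt, had 12287 and 12194. Intron 2 of beta-actin (Actb, 87 nt) had 28821 and 42275 reads. The chloride channel family gene Clic3 had 18548 and 14704 reads across its last intron (85 nt) and 8352 and 7082 across intron 4 (82 nt). Intron 4 of Crip1, a small LIM protein gene, had 9994 and 5353 reads at 79 nt. These are host genes of high level: Cbr2 stood at 12625 and 12821 TPM in replicates 1 and 2, and Actb at 5651 and 5238 TPM.

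The other junctions among the top 12 lay in Eef2, Gnas, Adgre5, Pltp and Rpl8. The elongation factor gene Eef2 had 6598 and 5943 reads across an 85-nt intron. Gnas, which encodes the stimulatory G protein subunit, had 6365 and 5510 reads across intron 9 (81 nt) and 5097 and 4543 across intron 10 (86 nt). Adgre5, an adhesion receptor of leukocytes, had 4758 and 5150 at 78 nt. Pltp, the phospholipid transfer protein, had 4248 and 5638 at 86 nt, and the ribosomal protein gene Rpl8 had 3820 and 5483 at 88 nt. In Actb, Adgre5, Pltp and Rpl8 tally R2 was the higher of the pair. After scaling by the tallies' totals R2 was also the higher in intron 3 of Cbr2, with a ratio of R1 over R2 of 0.96 (0.94 to 0.99), and R1 in the others. At each of these 12 junctions at least 99.7% of the reads at both splice sites were on the junction itself.

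The matched junctions lay in 2307 genes. For 113 junctions hosted by 2 annotated genes, a protein-coding gene was preferred, and after that the gene of higher TPM. Most genes held 1 short intron (1322) or 2 (477), and 508 genes with 3 or more held 2455 of the 4731 matched junctions. Cpsf1, the large subunit of the cleavage and polyadenylation factor, had 23 short junctions among its 36 introns, from 66 to 89 nt, with a lowest sum of 78, a median of 257 and a highest of 717 reads. Lama5, the laminin alpha 5 chain of basement membranes, had 22 among 78, with sums of 190 to 1196 reads and a median of 629.5. The lipid transporter gene Abca2 had 19, the endothelial and macrophage scavenger receptor gene Stab1 and Sbf1 17 each, and the laminin beta 2 gene Lamb2 16 among 32. Fasn, the fatty acid synthase that makes palmitate for surfactant lipid, had 13, with sums from 777 to 9100 reads and a median of 4640. The mechanically gated channel gene Piezo1 and the polarity gene Scrib had 14 each, and the filamin gene Flna had 12 with a median of 1381.5 reads. Members that share a gene are not independent of each other, since they share its transcripts.

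Host gene levels were known for 2300 of the 2307 genes. Their median was 33.1 TPM in replicate 1 and 30.4 TPM in replicate 2, beside 15.4 and 13.3 TPM over all 13855 genes that reached 1 TPM in each. The junctions had to reach a read minimum, which favours genes of high level. In bulk tissue, fewer cells of a type and less RNA per cell cannot be told apart.

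Nearly all matched junctions lay between coding sequence: 4649 (98.3%), with 34 in a 5′ UTR, 20 in a 3′ UTR and 28 in transcripts without a coding part. Few were the first intron of their transcript (3.47%), against 3.90% of the junctions of 90 to under 150 nt, 6.39% of those of 150 to under 1000 nt and 11.6% of longer ones. The exons on either side were of ordinary size, with a median of 118 nt upstream and 123 nt downstream, against 117 and 124 nt at 90 to under 150 nt and 131 and 132 nt at 1000 nt and over. Between codons (phase 0) stood 46.9% of the coding short introns, after the first base of a codon 30.5% and after the second 22.6%, against 46.6%, 30.02% and 23.3% at 90 to under 150 nt. A length divisible by 3 was found in 1543 of the 5070 (30.4%), against 32.4% at 90 to under 150 nt and 33.7% at 150 to under 1000 nt.

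For the 1043 coding introns with a sequence and a frame, 680 (65.2%) held a stop codon in the frame of the exon before them, so that keeping the intron would end the reading frame there. Only 93 (8.92%) had a length divisible by 3 and no stop in frame. These are only introns that an annotated transcript keeps. No such share was set beside them for longer introns or other sequence, so neither value is shown to be particular to short introns.

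Base composition could be read for 23.0% of the matched junctions, those with a sequence read from an annotated transcript that keeps the intron. A check of composition over all of them is void at that share, and the values that follow describe only these introns. Their GC content had a median of 58.4% (n = 1087, quartiles 53.0 and 63.1%). The median was 56.6% for 1288 matched junctions of 90 to under 150 nt and 55.0% for 464 annotated introns under 90 nt of expressed genes that were not among the junctions. Of these 464, 386 (83.2%) ran from GT to AG, against 99.9% of the matched introns. Their set took lengths from 31 nt, so it is not a like comparison. The lowest values were in Sbno1 (21.9%), the splicing factor gene Prpf38b (22.6%) and Eef1a1 (23.6%), an elongation factor gene whose 89-nt intron 5 had 3637 and 2510 reads. The highest were in Dhrs13 (84.9%, 32 and 67 reads), Tmem259 (83.1%, 2455 and 2172 reads) and Plekhj1 (82.9%, 66 and 76 reads).

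The run GGG, searched on the transcript strand only, occurred in 874 of these introns (80.4%). It occurred in 87.6% of the readable introns of 90 to under 150 nt, which are longer. In the other short annotated introns, not all of which run from GT to AG, the share was 64.2%. The run CCC had nearly the same shares in these sets, 81.6%, 88.04% and 64.2%. The donor began GTGA in 40.8% and GTAA in 23.3%, against 37.1% and 22.7% at 90 to under 150 nt. The acceptor ended CAG in 73.97% and TAG in 23.5%.

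Each donor and acceptor can be joined to more than 1 partner. Of the short junctions 2367 (46.7%) shared a site with at least 1 other row of the list, and 564 (11.1%) with a row of at least 10 reads; at 90 to under 150 nt these shares were 45.2% and 13.1%, and at 1000 nt and over 54.9% and 18.5%. The junction held 95% or more of the reads at both its sites in 4475 cases (88.3%). In 159 cases (3.14%) it held under 50% at one site, and 101 of these lacked flag A.

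Pairs of short junctions were compared where both carried flag C and their sites lay at most 24 nt apart; choices between a short and a longer intron were not classified. Among these there were 36 pairs with the same donor and a different acceptor, and 20 of these pairs, in 19 genes, differed by 3 nt, which removes or adds 1 codon in a coding exon. Such pairs made up 55.6% of the acceptor pairs at most 24 nt apart, against 44.8% at 90 to under 150 nt, 53.6% at 150 to under 1000 nt and 62.9% at 1000 nt and over, a range that holds the share of the short introns. Of the 14 donor pairs, 5 were 4 nt apart and 1 was 3 nt apart. The genes named in this paragraph and the next 2 were chosen after their values were seen, except Ager.

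In Ncln, which encodes nicalin of the endoplasmic reticulum, the 69-nt intron had 156 and 270 reads and the 72-nt intron 81 and 124. The upstream acceptor thus took 67.5% of the pair's reads (interval 63.7 to 71.2%), with 65.8% in R1 and 68.5% in R2. In Bag6, a chaperone gene, 217 and 297 reads ended at the upstream acceptor and 317 and 458 at the downstream one. In Cic, a transcriptional repressor gene, the pair was nearly even, with 158 and 177 reads against 180 and 192. Hnrnpab, which encodes a protein of the hnRNP A and B type, was near one end, with 2632 and 5582 reads on 80 nt and 43 and 128 on 83 nt, and Glis2 near the other, with 10 and 19 reads on 81 nt and 607 and 614 on 84 nt.

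Over the 20 pairs the upstream acceptor led in 10 and the downstream one in 10, and the minor form held 20% or more of the reads in 13. The share in tally R1 and the share in R2 differed by a median of 2.83 percentage points. The largest gap was 22.5 points, in Mrps10, where the 81-nt intron had 9 and 16 reads and the 84-nt intron 17 and 12. Pairs with more reads could also differ: in Stxbp2 (437 reads) the upstream acceptor took 26.4% in R1 and 15.2% in R2.

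**Figure D2:**
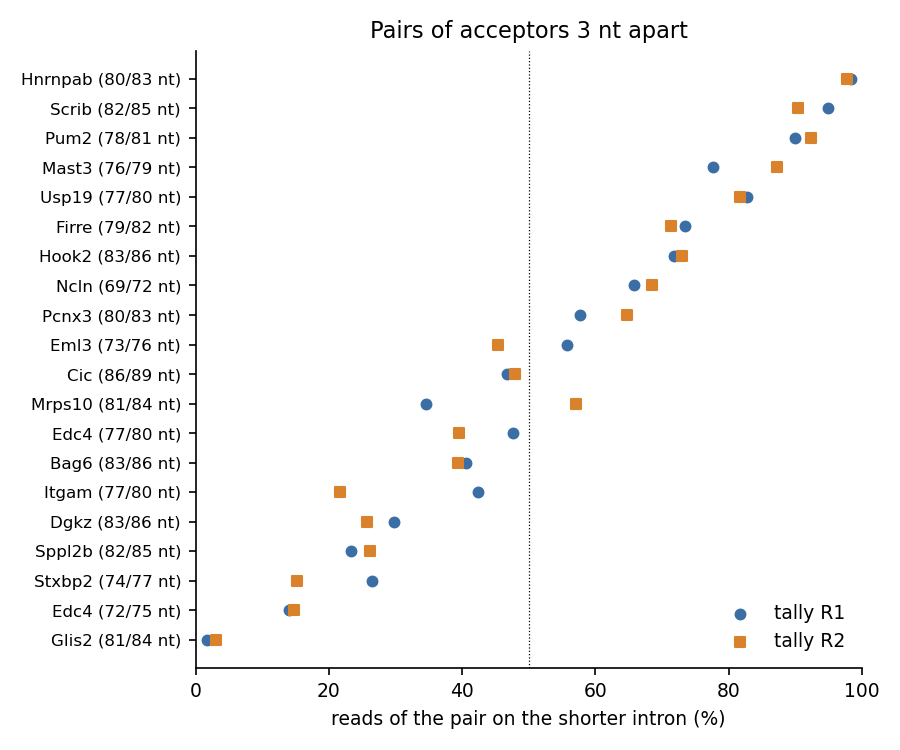
For the 20 pairs of acceptors 3 nt apart, the percent of the pair's reads on the shorter intron (horizontal axis), in tally R1 (circles) and tally R2 (squares), with the intron lengths beside each gene name and a dotted line at 50%. The pairs range from Glis2, nearly all on the longer intron, to Hnrnpab, nearly all on the shorter one, and the median difference between the tallies is 2.83 percentage points.

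Ager, the receptor for advanced glycation end products and a marker of alveolar type 1 cells, had acceptors 4 nt apart. Its 85-nt intron had 4623 and 3996 reads. The 89-nt intron, annotated in a transcript without a coding part, had 188 and 183 reads, 4.13% of the reads at the shared donor. In Tmem259 the donor pair was further from even: 2455 and 2172 reads left from the inner donor (71 nt) and 17 and 17 from the outer one 4 nt upstream (75 nt), 0.73% of the reads at their acceptor. In Mrps24, a mitochondrial ribosomal protein gene, an outer donor gave an 89-nt intron with 26 and 29 reads beside 1843 and 3120 on the 68-nt intron, 1.09% at the acceptor and the lowest share among junctions with at least 50 reads. In Serpinh1, the collagen chaperone gene, an 87-nt intron of the 5′ UTR with 35 and 64 reads took 1.16% of the reads at its donor. An 82-nt intron of Lgi3 with 25 and 35 reads took 2.35%.

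For a matched intron with another junction of the same transcript on each side, its reads can be set beside the mean of those neighbours. For 3611 short junctions this ratio had a median of 0.95 (5th to 95th percentile 0.34 to 2.31). It was under 0.5 in 13.0%, against 14.96% at 90 to under 150 nt, 16.4% at 150 to under 1000 nt and 17.7% at 1000 nt and over. It was over 2 in 7.73%, against 8.80%, 8.65% and 9.45% in those classes. The median short junction thus stood close to its neighbours, with no test made of the small differences between classes. The neighbours also had to be matched and to pass the read rule. Junctions with few reads are therefore missing on both sides, and the ratio does not cover them.

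Reads inside introns were followed in the deposited contigs, which are stretches of the genome covered by reads of 1 strand. The whole intron lay inside 1 contig of its own strand for 4270 of the short junctions (84.2%), for 69.9% at 90 to under 150 nt and for 42.5% at 150 to under 1000 nt. Within the short introns the share fell from 100% of 114 at 65 to 69 nt to 93.9% at 70 to 74 nt, 88.4% at 75 to 79 nt, 82.3% at 80 to 84 nt and 78.7% at 85 to 89 nt (interval 76.7 to 80.6%). From 100 to 174 nt it stayed between 67.9% and 69.9%. It also moved with reads: of short junctions with a sum of 20 to 49 it was 67.8%, and of those with 1000 or more 96.9%. A contig says that the stretch was joined, not how many reads lay in it, and the labels do not say how contigs were joined over gaps, so whether the length itself moves this share was not tested.

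**Figure D3:**
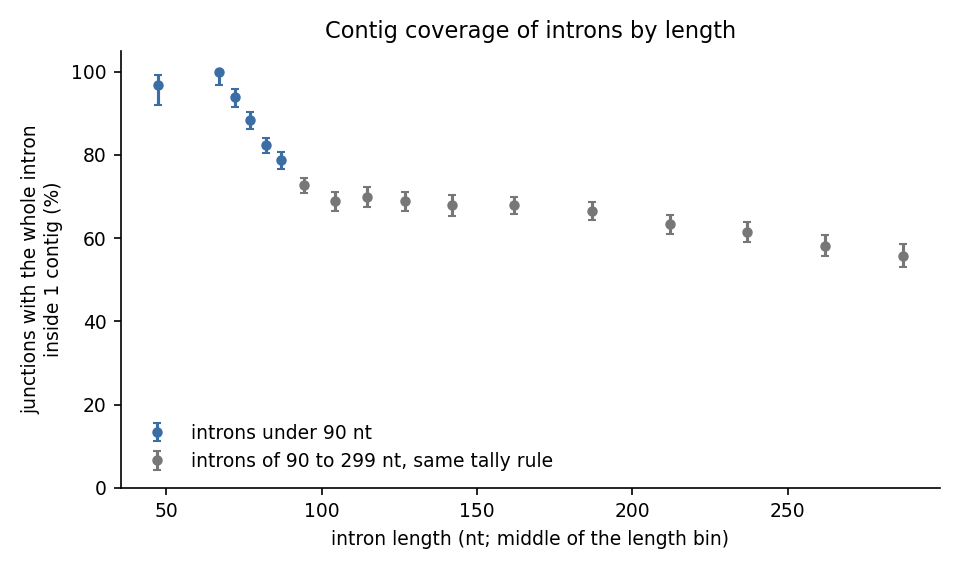
Percent of junctions whose whole intron lies inside 1 deposited contig of the same strand (vertical axis) by intron length in nt (horizontal axis, middle of each length bin), with exact 95% intervals as bars. The share falls from 100% at 65 to 69 nt to 78.7% at 85 to 89 nt, and then more slowly, to 55.8% in the last bin, which ends below 300 nt.

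The transcript quantification is a separate readout on mm10. It gives the share of TPM on transcripts that splice a short intron. A level had to be set for both a transcript that splices it and one with an exon across it. That held for fewer introns than the 1087 with a sequence. For 763 introns with both, the spliced transcripts held a median of 90.6% of the TPM in replicate 1 and 90.9% in replicate 2 (90.8% ± 0.21, SD, n = 2). In 364 introns the share was 90% or more in both libraries, and in 31 it was under 50% in both. The 2 libraries differed by a median of 1.83 percentage points per intron. The transcripts were taken from GENCODE M21 and their levels from the quantification on M4. A transcript without a level there added nothing to its side. Transcripts differ in other exons too, so these shares belong to the transcripts and not to the intron alone.

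The lowest share was in Mrps26, a mitochondrial ribosomal protein gene, whose 80-nt intron 2 was spliced in 3.53% and 2.47% of the TPM, although its junction had 64 and 75 reads. Dusp7, a phosphatase of ERK kinases, followed with 3.36% and 4.30% for an 83-nt intron (41 and 50 reads). That intron is annotated only in transcripts without a coding part. The myotonic dystrophy kinase gene Dmpk had 6.15% and 5.93% for an 87-nt intron (19 and 18 reads), annotated in a transcript without a coding part. Rtel1, a telomere helicase gene, had 14.0% and 10.8%. Hmg20b, whose intron lies in the 5′ UTR, had 10.03% and 16.4%. Mib2, a ubiquitin ligase gene, had 11.1% and 19.3%, again for an intron annotated only in transcripts without a coding part. At the other end several introns were tied at 100% in both libraries, among them those of Mrpl22, Nop16 and Aloxe3.

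**Figure D4:**
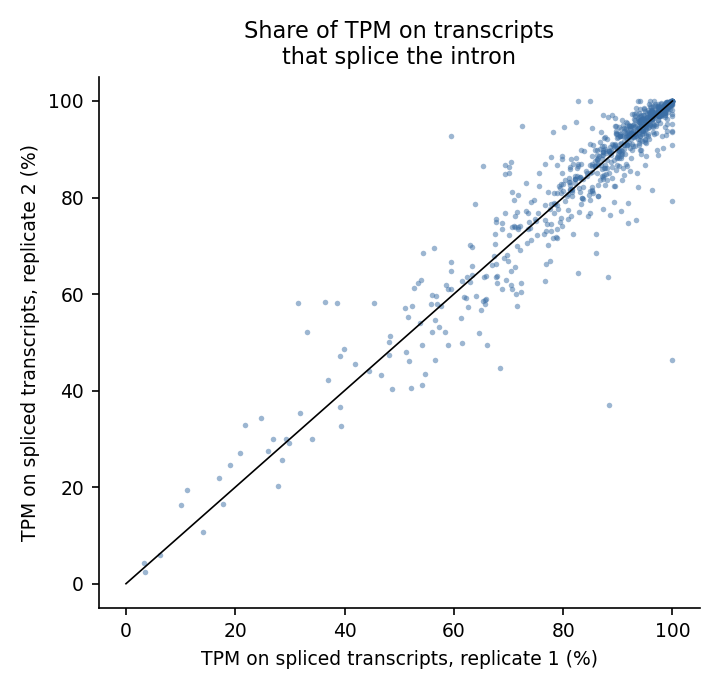
Percent of TPM on transcripts that splice the intron, in replicate 1 (horizontal axis) and replicate 2 (vertical axis), 1 point for each of 763 short introns, with the line of equal values. In 364 introns the share is 90% or more in both libraries, and in 31, down to Mrps26 and Dusp7, it is under 50% in both.

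The tallies R1 and R2 were compared after scaling by their totals over the whole list, 18082458 and 17247857 reads. R1 was 2-fold or more higher in 410 short junctions (8.09%) and R2 in 171 (3.37%); over all 106636 junctions past the read rule these shares were 12.6% and 3.69%. This balance depends on the scaling: with tallies scaled by the median ratio of the junctions, 257 short junctions were 2-fold higher in R1 and 310 in R2, against 7.72% and 6.48% of all junctions. The scalings differ because the median junction past the read rule, at any length, stood at a log2 ratio of 0.21 and the median short junction at 0.11. Among short junctions with at least 100 reads, 94.99% lay within 2-fold, and among those with at least 1000 reads 97.6%. Each rule asked for reads in both tallies, so junctions seen in 1 tally alone are not among them.

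**Figure D5:**
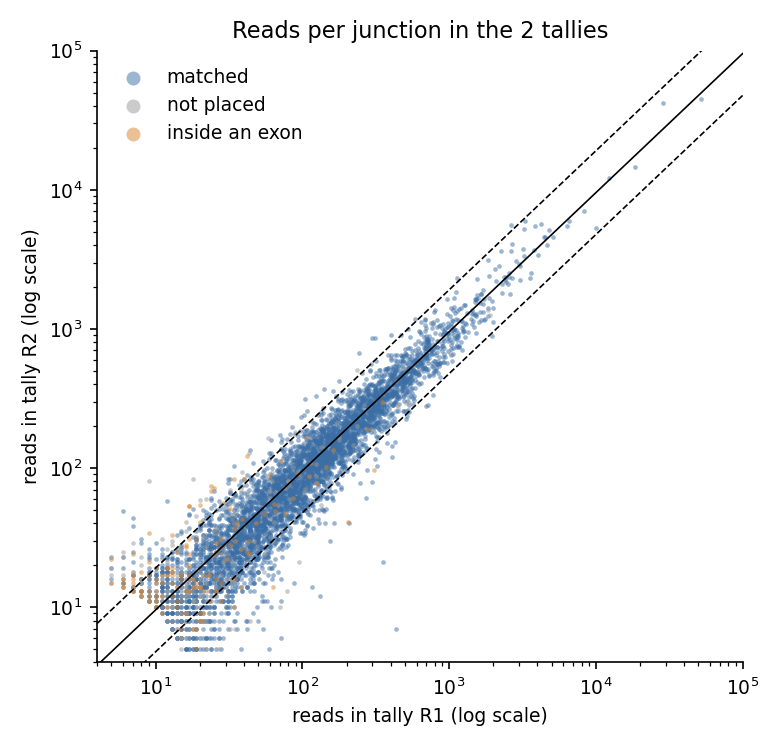
Reads in tally R1 (horizontal axis, log scale) and tally R2 (vertical axis, log scale) for each of the 5070 short junctions, coloured by placement. The solid line marks equal scaled tallies and the dashed lines a 2-fold difference; 88.5% of the junctions lie between the dashed lines, and Ada, with 433 and 7 reads, stands farthest below them.

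The 6 largest ratios towards R1 began with Ada. The 81-nt intron 7 of Ada, the adenosine deaminase gene, had 433 reads in R1 and 7 in R2, a ratio of 59.0 (exact 95% interval 28.4 to 148, counting error only). The 85-nt intron 18 of Atp2a1, the calcium pump of fast skeletal muscle, had 355 and 21 reads, a ratio of 16.1 (10.4 to 26.4). Slc38a3, a glutamine transporter, had 71 and 6 reads, Atg9b 59 and 5, the aquaglyceroporin gene Aqp3 131 and 12, and Aloxe3, an epidermal lipoxygenase, 117 and 14. Of their genes, Ada, Atp2a1, Aqp3 and Aloxe3 also differed in level between the libraries, which no label ties to the tallies. Ada was at 93.1 TPM in replicate 1 and 2.26 in replicate 2, Atp2a1 at 257 and 9.98, Aqp3 at 44.0 and 5.72, and Aloxe3 at 21.3 and 2.43. The levels of Slc38a3 and Atg9b are not given here.

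Towards R2 the largest differences with a gene name were in Ctrl, a pancreatic chymotrypsin-like protease gene. Its 73-nt intron 5 had 6 reads in R1 and 49 in R2, a ratio of R2 over R1 of 8.56 (3.66 to 24.5), and its 89-nt intron 2 had 7 and 38. Doc2g, at 70 nt, had 7 and 44 reads, and Gfra4, a receptor gene of the GDNF family, 12 and 58 at 81 nt. The gene Ctrl stood at 1.43 TPM in replicate 1 and 11.1 in replicate 2. The other 2 of the 6 were 74-nt rows of chromosome 2 without flags A and C, beginning 1 nt apart (71625055 and 71625056), with 9 and 80 reads and 18 and 84.

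Between the libraries themselves, 2297 host genes had an average of 50 or more rounded expected counts. After TMM scaling, 32 of them (1.39%) stood at least 2-fold higher in replicate 1 and 17 (0.74%) in replicate 2. Over all 14708 genes at that count, the shares were 4.45% and 2.21%. With scaling by library size the host genes split into 41 and 8.

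The libraries differed in markers of tissues other than lung. All 7 squamous epithelium markers were at 6.50 TPM or more in replicate 1 and 0.70 or less in replicate 2 (sums of 4175 and 1.76 TPM), with Krtdap and Krt6a at 0 in replicate 2. The 5 skeletal muscle markers summed to 2771 and 56.9 TPM, with Tnnc2 at 0 in replicate 2. The 5 markers of intestine and pancreas summed to 3.76 and 194 TPM, with Sycn at 0 in replicate 1, and the 5 erythroid markers to 22915 and 63391 TPM. Their part in the tally differences was not tested. None of the genes in the squamous, skeletal muscle, plasma cell, intestine and pancreas, T cell or B cell lists held a short junction. These lists are small, and Atp2a1, Aloxe3 and Ctrl, named above for their tally ratios, held short junctions but are not on them.

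The lung lists were all present, with every marker of alveolar type 1 and type 2, club, ciliated, endothelial and fibroblast cells at 1 TPM or more, and several held short introns. The 81-nt intron 2 of Napsa, the surfactant-processing protease of alveolar type 2 cells, had 1074 and 863 reads. The ciliated cell gene Sec14l3 had 2692 and 2308 reads at 86 nt, and Tppp3, a tubulin-binding protein gene of the same cells, 62 and 64 at 85 nt in the 5′ UTR, 15.9% of the reads at one site. Of the macrophage genes, Chil3, a chitinase-like protein, had 1534 and 927 reads at 81 nt, and the scavenger receptor gene Marco 22 and 10 at 86 nt.

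Of the marker lists that of fibroblasts held the most, 12 short junctions in 4 of 5 genes. All but 1 of the 12 lay in collagen genes, of which Col1a1 and Col3a1 have 50 introns each. No share of introns was computed for the lists, so the count is not shown to be a trait of the cell type. The collagen genes are made of many small exons that encode repeats of the triple helix. Col1a1 had 6 short introns of 81 to 89 nt, of which intron 47 had 692 and 764 reads and the other 5 between 229 and 323 in R1 and between 213 and 316 in R2. Col1a2 had 991 and 876 reads at 80 nt and 773 and 1114 at 88 nt, and Col3a1 had 535 and 443 at 84 nt, 271 and 205 at 82 nt and 166 and 156 at 86 nt. Mfap4, a protein of elastic fibres, had 1431 and 1371 reads at 72 nt. In muscle, the smooth muscle myosin gene Myh11 had 125 and 61 reads at 88 nt, and the cardiac myosin gene Myh6 had 5 short introns with 136 to 341 reads in R1 and 51 to 249 in R2. Every one of these 5 was higher in R1.

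All 51 genes of the list of splicing factors stood at 1 TPM or more in each library, with a median of 31.7 TPM in replicate 1 and 26.8 in replicate 2. By expected counts after edgeR's TMM scaling, none of the 51 was 2-fold apart between the libraries, beside the 4.45% and 2.21% of all genes. By TPM, Rbm17 and Zrsr1 (3.38 and 1.65 TPM) were more than 2-fold higher in replicate 1. The U1 protein genes Snrnp70 and Snrpa stood at 92.8 ± 7.79 and 123 ± 5.05 TPM (SD, n = 2), and U2af2, the large subunit of U2AF, at 120 ± 21.1. The U2 factor genes Sf3b1 and Sf3a3 stood at 35.4 ± 14.0 and 8.86 ± 1.92 TPM. Rbm17, a factor implicated in the splicing of introns with short 3′ tracts, stood at 54.8 and 26.5 TPM, and its partner gene Sap30bp at 20.5 and 17.7. Of the binders of G runs, Hnrnpf stood at 137 and 93.9 TPM and Hnrnph1 at 84.01 and 50.3.

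Of the 51 factors, 17 carried short introns of their own, 33 junctions in all, every one between coding sequence. Hnrnph1 had 331 and 131 reads at intron 7 (84 nt) beside the 56-nt intron 8 already given. Sf3b1, the branch point factor, had 323 and 103 reads at 83 nt, 110 and 47 at 80 nt and 42 and 22 at 87 nt, all higher in R1. Prpf8, the core protein of the spliceosome, had 312 and 208 reads at 80 nt, 239 and 125 at 76 nt and 100 and 96 at 83 nt. Sart1 had 4 short introns with 20 to 50 reads in R1 and 14 to 33 in R2. Puf60 had 474 and 427 reads at 81 nt and 424 and 424 at 83 nt.

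Among the junctions inside annotated exons, 33 carried flag C and ran from GT to AG. In 15 of them the junction held 50% or more of the reads at both sites. Within coding exons there were 6. Of these, 5 had a length divisible by 3 (30.4% over all short junctions), so that removing the stretch keeps the frame. They were found in Fastk (84 nt, 28 and 15 reads), Dyrk1b (84 nt, 25 and 24, which was 25.7% of the reads at its acceptor), Ptgfrn (81 nt, 22 and 13), Sdf2 (78 nt, 10 and 13) and Cd300lg (78 nt, 10 and 11); the exception was Clcn4 (82 nt, 13 and 17). Fastk, a mitochondrial RNA-binding protein gene, stood at 206 and 173 TPM in replicates 1 and 2, Sdf2 at 72.4 and 62.98, Clcn4 at 25.01 and 16.7, and Cd300lg at 6.92 and 11.2. The stretch of Cd300lg had a direct repeat of 8 bases at its ends. These 6 were chosen for naming after their values were seen.

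The 198 junctions without flag C differed from the rest in length, place and ends. The 189 without either flag had a median span of 61 nt and a median sum of 41 reads, against 82 nt and 171 reads for those with both flags. Of these 189, 100 lay inside an annotated exon, 88 were not placed and 1 matched an intron. The 9 with flag A alone included intron 2 of Plekhn1 (89 nt, 451 and 444 reads) and intron 10 of the matrilin gene Matn4 (78 nt, 177 and 203 reads), for which no sequence was read.

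Many of these gaps had a short direct repeat at their ends, so that the gap could be placed at more than 1 position with the same read. The repeat was of 5 bases or more in 63 of the 102 with a sequence (61.8%) and of 10 or more in 22, with a median of 5 bases. Among the matched introns with flag C it was of 5 or more in 97 of 1086 (8.93%) and of 10 or more in none, with a median of 2 bases. Among the 33 junctions with flag C inside exons it was of 5 or more in 6 (18.2%) and of 10 or more in 3, so long repeats were not confined to rows without flag C. Each row was counted, also where rows share a gene, as do 17 rows without flag C in Epas1. No count by gene was made. In Son, a splicing cofactor with long tandem repeats in its coding sequence, the 60-nt gap had 42 and 25 reads and a repeat of 29 bases. In Gsn, the actin-severing protein gelsolin, a 36-nt gap with a 5-base repeat had 40 and 83 reads, and in Dut, the dUTPase gene, a 43-nt gap with a 6-base repeat had 42 and 122. The repeat was 2 bases in the 57-nt gap of the endothelial cadherin gene Cdh5, which had 94 and 92 reads. Whether such gaps were present in the RNA or arose in making or aligning the library was not tested.

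The 101 gaps without flag C inside exons lay in 71 genes, and of these only Epas1 and Sftpb held more than 2. Epas1, the hypoxia-inducible factor of lung endothelium, held 17, all in its 3′ UTR and several with a site in common, of which the largest had 351 and 297 reads at 70 nt. Sftpb, the surfactant protein B gene of alveolar type 2 cells, held 5 of 37 to 45 nt with 7 to 20 reads in R1 and 10 to 17 in R2, beside a level of 4944 and 6799 TPM. The haemoglobin gene Hbb-bs held a 64-nt gap with 71 and 113 reads. Hba-a1 and Hba-a2, which are near-identical copies, each held a 61-nt gap with the same 17 and 53 reads, so those rows may share their reads and are uncertain. Among the rows without flag C the most reads were on a 33-nt gap of chromosome 9 (56071575 to 56071607), with 1905 and 1254, which was not placed in a gene.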

How the data were processed

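Polyadenylated RNA of 2 mouse lung libraries was analysed from deposited tables. The deposited junction list gives read counts per junction and a reproducibility score, and the deposited contig list a signal level and a score, both on mm9, per the deposited file lists. The deposited expected counts, TPM and FPKM values per gene and transcript are named by the file headers, and are on mm10 with GENCODE M4, per the deposited file lists. A deposited column with each transcript's percent of its gene was left aside. No label or header read here names the aligner or the junction and contig callers.

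Members and lists were chosen with earlier results of these data known. Junctions were named by structure, never by converting coordinates, and the naming was tested on simulated data. Expected counts were rounded. Log2 ratios used edgeR 4.0.16 (TMM, prior count 2); DESeq2 1.42.0 was an alternative. Intervals are exact Clopper-Pearson 95% and cover counting error only. Genes totalled 48234758 and 44182823 rounded counts. Other steps used Python 3.11.15, pandas 2.3.3 and scipy 1.17.1.

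The rule for names took the 12 junctions of highest sum, the 12 shortest, the 6 largest tally ratios each way, the 6 lowest site shares with at least 50 reads, the 6 lowest and 3 highest spliced shares, the 6 highest and lowest GC contents, hosts among the marker and splicing factor lists, genes with 3 or more members, and Xbp1. Other genes named, including the shortest matched introns and those inside exons, were chosen after their values were seen. Lists of 16 cell types and 51 splicing factors were used.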

Additional observations from a re-analysis of the deposited data

How the results depend on the processing

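No paired analysis was possible because both libraries belong to 1 group. The number of junctions fell to 1774 with a length bound of 80 nt; 6 other settings gave counts within 1.5 times of 5070, and with 1 tally alone at 10 or more the number ran from 5020 to 5304. The median length was 76 nt with a bound of 80 nt and 85 nt with a bound of 100 nt, since the bound sets it, and 82 nt with either tally alone. Junctions apart between the tallies numbered 1540 at 1.5-fold, 146 at 3-fold and 386 with both tallies at 10 or more, against 581. Of the calls, 70.6% were higher in R1 with scaling by totals, 45.3% with the median ratio and 76.7% with no scaling. Junctions that share a site numbered 564 where the other junction needed 10 reads and 578 where it needed 5% of the reads. The median spliced share was 95.1% by expected counts and ran from 90.6% to 90.9% with 1 replicate left out. The median host level was 5.03 as log2(TPM + 1), 4.66 with FPKM in place of TPM, and 4.97 to 5.09 with 1 replicate left out. The median TPM of the splicing factors ran from 26.8 to 31.7 with 1 replicate left out. In all, 30 of 40 alternative values stayed within their bounds. Leaving out a tally was not run for matching, site sharing or contigs. Introns in genes with few reads are missed at this depth.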
